A study of Mus musculus with 6 samples.

Results

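Cytokine receptors and the JAK-STAT genes that relay their signals were described in haematopoietic stem cells (HSCs) of Chrm1-/- mice and in wild type HSCs; the gene Chrm1 codes for the M1 acetylcholine receptor. The set holds 41 receptor and signalling genes listed by name. Of these, 38 had a transcript cluster with 1 gene symbol on the array, among 22180 such genes in all. The cluster of Jak3 carries a second gene symbol, Insl3, and Jak3, Il2rg and Il11ra1 were not analysed here. No tested member was called different between the genotypes: 0 of the 33 members bright enough to be tested had an unadjusted p under 0.05 in limma. Of all 11094 genes tested 2.99% did, 1.4% with a higher and 1.6% with a lower mean in Chrm1-/-.

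Affymetrix mouse gene arrays were hybridised with amplified RNA of HSCs sorted from the bone marrow of mice at steady state. The sort took cells without lineage markers that carried Sca1 and Kit and lacked Flt3. Chrm1-/- cells gave 3 arrays and wild type cells gave 3 arrays, and both genotypes were of the C57Bl/6 strain. The labels list no treatment for either group. They state no age or sex of the mice, nor whether mice were pooled for an array, nor how the allele was made. The single comparison asks how HSCs that lack the receptor gene differ from wild type HSCs before any mobilizing stimulus.

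Most cytokine receptors lack kinase activity of their own and carry Janus kinases (JAKs) on their cytoplasmic tails. Ligand binding brings the chains together, the JAKs phosphorylate the tails, and the STAT transcription factors dock there, are phosphorylated and move to the nucleus. SOCS proteins, PIAS proteins and phosphatases end the signal. In HSCs such signals bear on survival, on quiescence and on the response to infection, when interferons, interleukin-1 and tumour necrosis factor reach the marrow.

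Array medians lay between 6.49 and 6.57 on the log2 scale, so the arrays were on a common scale, and their number limits the precision. Chrm1 read 8.16, 7.52 and 7.58 on the Chrm1-/- arrays and 7.45, 7.44 and 7.67 on the wild type arrays; no source names the part of the gene that the probes cover or the part that is deleted, and the signal is therefore no check of genotype. All 13 HSC and sort genes found on the array passed the signal minimum, and these include genes whose level does not mark HSCs. Flt3, whose protein the sort selected against, read between 9.95 and 10.29 in Chrm1-/- and between 9.87 and 10.09 in wild type, so its transcript signal was above the minimum on every array. Cd48, a surface protein of more mature progenitors, read between 9.74 and 10.41 in Chrm1-/- and between 10.19 and 10.53 in wild type. Procr, a receptor that marks HSCs, read 8.16, 8.19 and 8.24 in Chrm1-/- and 8.40, 8.45 and 8.50 in wild type, with no overlap, a difference of -0.25 ± 0.10 (SE), an unadjusted p of 0.0393 and an adjusted p of 0.996 in limma. Over all genes tested, 5.79% had no overlap between the groups and 2.99% had an unadjusted p under 0.05 in limma. The 13 HSC and sort genes had no common direction, with 6 higher and 7 lower in Chrm1-/- and a median difference of -0.023. Of the markers found for other cells, 10 of 18 for granulocytes and monocytes, 8 of 12 for T and NK cells, 8 of 10 for B cells and 6 of 8 for mast cells and basophils were below the minimum, as were 5 of 10 for stroma and endothelium and 1 of 9 for erythroid cells and megakaryocytes. Mean correlations of an array with the others of its group ran from 0.926, for wild type replicate 3, to 0.938, and with those of the other group from 0.925 to 0.943; 4 of the 6 arrays correlated more with the other group than with their own. In such a mixture of sorted cells, fewer cells of a type and less RNA per cell cannot be told apart.

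Signals are log2 values as deposited, and each difference is Chrm1-/- minus wild type. A gene was tested if its mean over the 6 arrays reached the median of all genes, 6.77. The members Csf2rb2, Lifr, Osmr, Il10ra and Il13ra1 were below that minimum, and their differences come from the same fit run without the minimum. Signals of different genes depend on their probes, so each gene is compared only with itself. None of the 33 tested members passed the adjusted threshold, and each had an adjusted p of 0.996 in limma. Of the 33, 18 had a higher and 15 a lower mean in Chrm1-/- HSCs, while 50% of all genes tested were higher and 49.2% lower. The median difference was 0.043 over the 33 tested members and 0.03 over all 38, against 0 over the genes tested and 0.01 over all genes. Single members ranged from -0.37 for Ptpn11 to 0.45 for Il17ra.

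**Figure D1:**
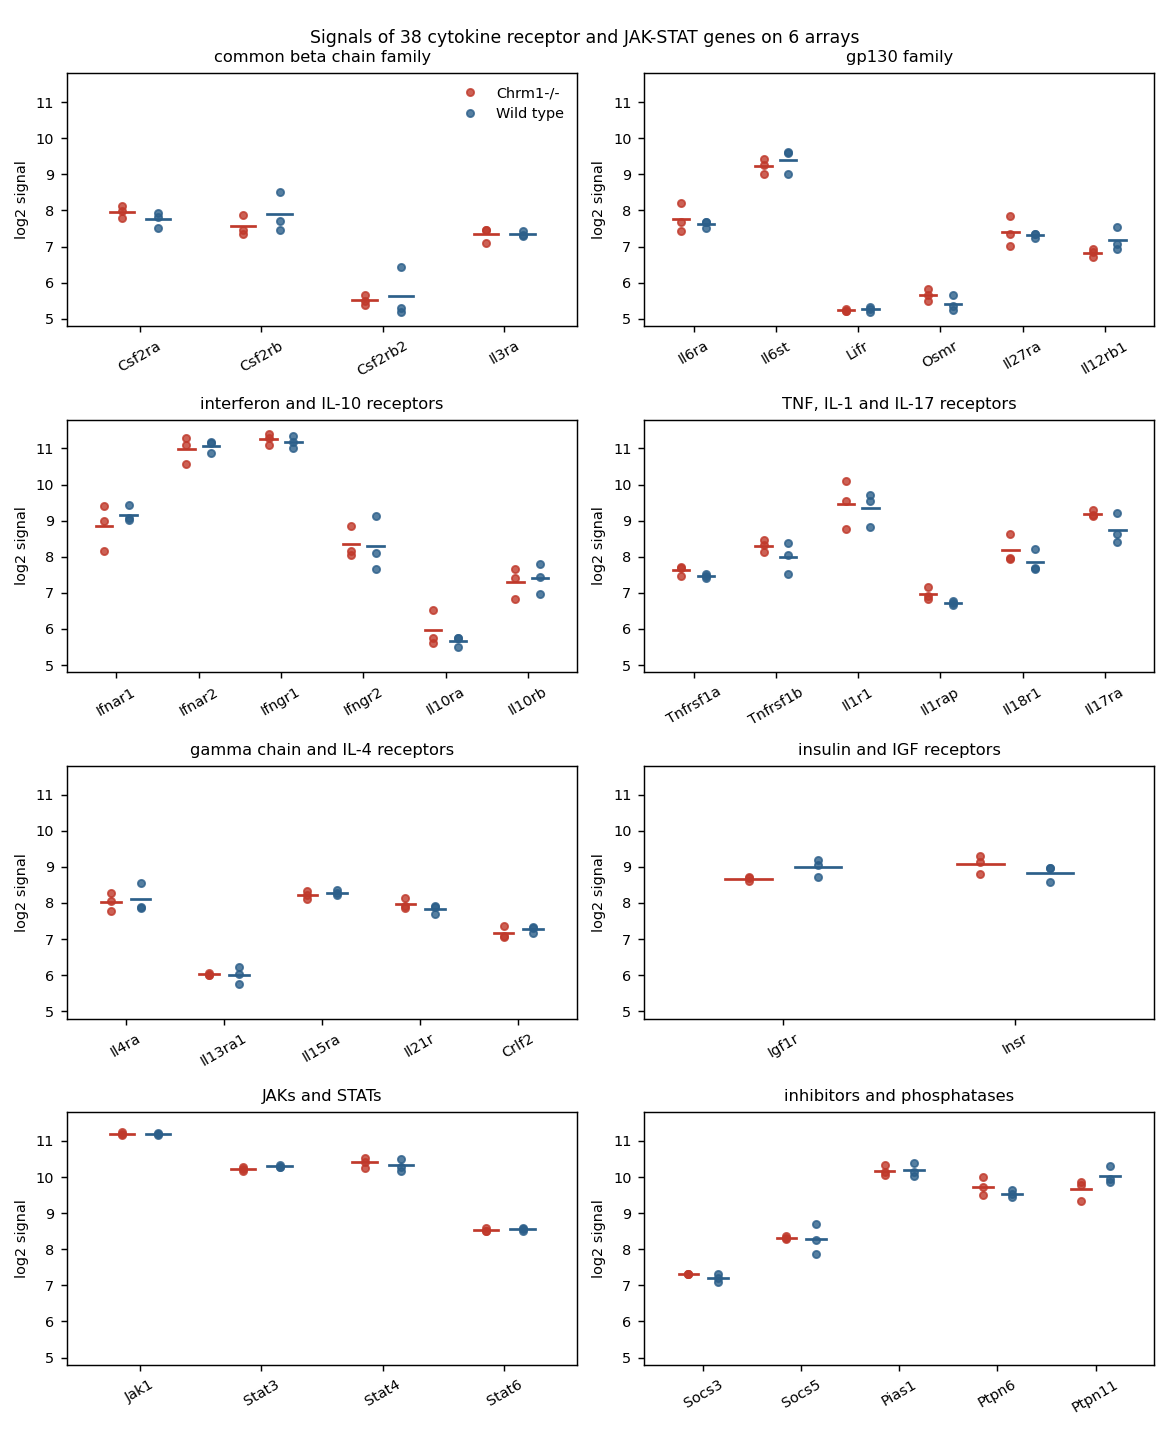
Signals of the 38 members on the log2 scale (vertical axis), in panels by role, with Chrm1-/- arrays in red on the left and wild type arrays in blue on the right of each gene. Points are single arrays (n = 3 per group) and lines are group means. The groups overlap for all tested members but Il1rap and Igf1r, and heights of different genes are not comparable.

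Groups of 3 arrays were apart, with no overlap, for 2 of the 33 tested members: Il1rap, higher in Chrm1-/-, and Igf1r, lower in Chrm1-/-. Over all genes tested, 5.79% had groups apart, 2.81% higher and 2.97% lower, so 2 of 33 is near the background. Both members overlapped between the groups after a further quantile normalization, when Il12rb1, Il17ra and Socs3 were apart, and after each array was centred on its median Il12rb1, Ptpn11 and Socs3 were apart besides them.

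The 6 receptors of tumour necrosis factor and of the interleukin-1 and interleukin-17 families, which signal inflammation through adaptor proteins and NF-kB and not through JAKs, each had a higher mean in Chrm1-/- HSCs. Their median difference was 0.29, and 0 of the 6 had an unadjusted p under 0.05 in limma. Of all genes tested, 50% had a higher mean. The groups of members are small, and this one had the median farthest from 0. Medians of the other groups lay between -0.077 and 0.043. Il17ra, the shared receptor chain for interleukin-17 cytokines, read 9.16, 9.13 and 9.30 on the Chrm1-/- arrays and 9.20, 8.41 and 8.64 on the wild type arrays. Wild type replicate 1 lay within the Chrm1-/- values and the other 2 wild type arrays lay below them. The difference was 0.45 ± 0.21 (SE, n = 3 each; 95% interval -0.07 to 0.97), with an unadjusted p of 0.0807 in limma.

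Il1rap, the accessory chain that interleukin-1 and interleukin-33 receptors need in order to signal, read 6.82, 6.91 and 7.16 on the Chrm1-/- arrays and 6.77, 6.72 and 6.66 on the wild type arrays. Every Chrm1-/- array was above every wild type array, by as little as 0.05 between the nearest arrays. The difference was 0.25 ± 0.13 (SE; 95% interval -0.06 to 0.55), with an unadjusted p of 0.0968 in limma. The gene has 3 clusters on the array, and the higher mean was seen in 1 cluster only. The other clusters had means of 5.23 and 4.91 and each differed by -0.04. Both were below the signal minimum, so their differences say little about the brightest cluster.

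Tnfrsf1b, the second receptor for tumour necrosis factor, read 8.46, 8.33 and 8.14 in Chrm1-/- and 7.51, 8.06 and 8.39 in wild type. Its wild type values were spread over a wider range than the Chrm1-/- values, and the difference of 0.32 ± 0.24 (SE) became 0.085 without wild type replicate 1. Tnfrsf1a, the death domain receptor for the same ligand, read 7.71, 7.70 and 7.46 in Chrm1-/- and 7.47, 7.52 and 7.40 in wild type, and 2 of its 3 Chrm1-/- arrays were above all wild type arrays. Il18r1, the ligand-binding chain of the interleukin-18 receptor, read 7.95, 7.97 and 8.62 in Chrm1-/- and 7.70, 8.21 and 7.66 in wild type, and its difference of 0.32 ± 0.25 (SE) was 0.10 without Chrm1-/- replicate 3.

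Il1r1, the receptor for interleukin-1, which drives HSCs toward myeloid output during inflammation, had one of the wider spreads among the members. It read 10.10, 8.76 and 9.53 on the Chrm1-/- arrays and 9.71, 8.81 and 9.53 on the wild type arrays, for a difference of 0.11 ± 0.39 (SE; 95% interval -0.84 to 1.07). The arrays numbered 2 were the lowest in both groups, and the difference was -0.21 without Chrm1-/- replicate 1. Leaving out that array or wild type replicate 2 left 5 of the 6 receptors higher. Over all 6 fits that left out 1 array, the median of this receptor group ran from 0.20 to 0.37. The mean deviation of the 6 receptors from their own averages was 0.21, -0.022 and 0.21 on the Chrm1-/- arrays and -0.095, -0.20 and -0.11 on the wild type arrays. Markers of granulocytes and monocytes, cells that carry these receptors, had 7 of 8 tested members and 11 of all 18 lower in Chrm1-/-, with array means from 7.09 to 7.35 in Chrm1-/- and from 7.21 to 7.47 in wild type. Markers of stroma and endothelium had 4 of 5 tested members and 8 of all 10 higher in Chrm1-/-, with a median difference of 0.21 over the tested ones. Their array means ran from 7.19 to 7.22 in Chrm1-/- and from 7.10 to 7.14 in wild type. These means did not overlap, but the nearest, 7.189 and 7.137, were close. No share of other lists with such means apart was computed. Of the 10 genes 5 were below the signal minimum, and 0 of the 5 tested had groups apart. Markers of erythroid cells and megakaryocytes also had 6 of 8 tested members and 7 of all 9 higher, with array means from 8.16 to 8.30 in Chrm1-/- and from 8.18 to 8.32 in wild type. The part of any of these lists in the receptor values was not tested.

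**Figure D2:**
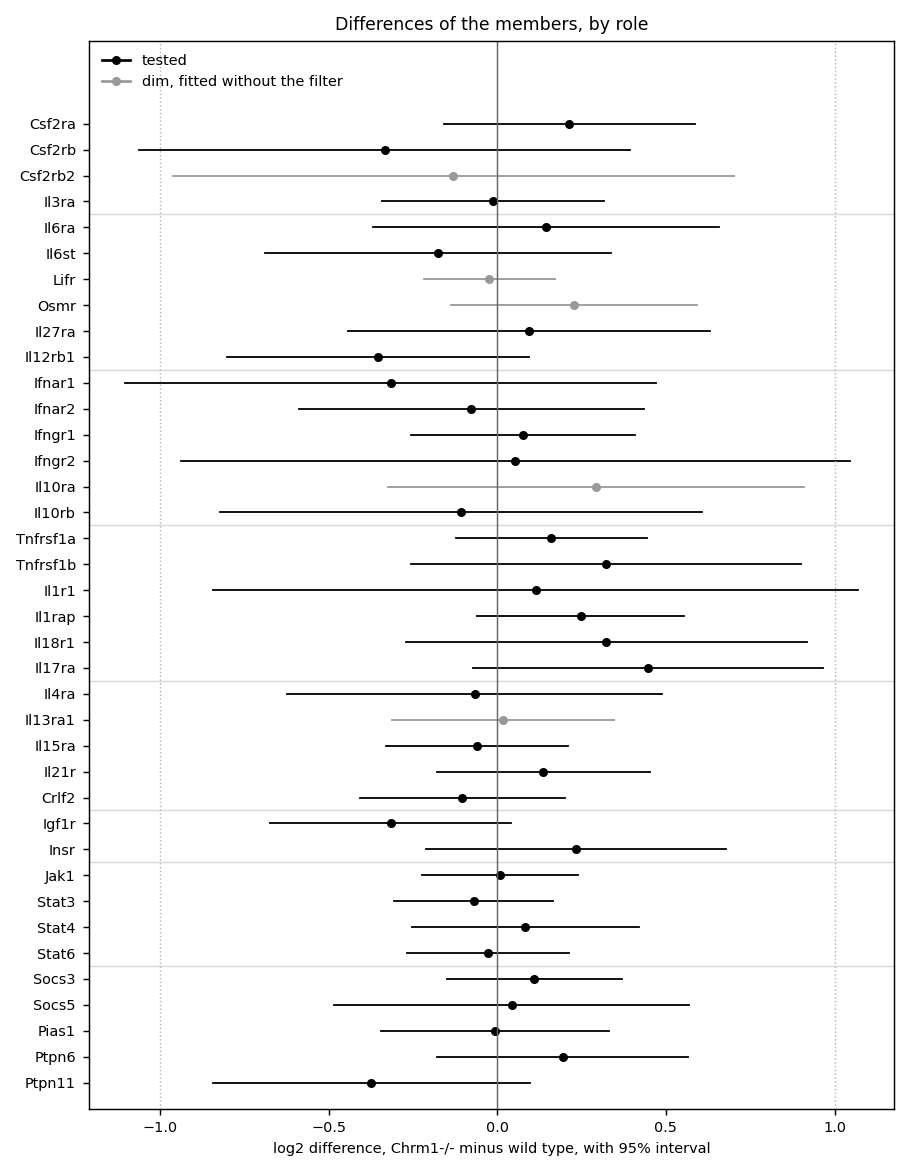
Log2 difference of each member, Chrm1-/- minus wild type (horizontal axis), with limma's 95% interval; grey lines separate the roles, and grey points are the 5 dim members fitted without the signal minimum. Dotted lines mark a 2-fold change. Every interval includes 0, and the 6 receptors of the TNF, IL-1 and IL-17 group lie to the right of 0.

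Receptors of the common beta chain family bind interleukin-3, interleukin-5 and GM-CSF, cytokines of myeloid growth. The specific alpha chains had overlapping groups. Csf2ra, the GM-CSF alpha chain, read 7.80, 7.99 and 8.11 in Chrm1-/- and 7.52, 7.81 and 7.93 in wild type, a difference of 0.21 ± 0.15 (SE). Il3ra, the interleukin-3 alpha chain, read 7.10, 7.45 and 7.46 in Chrm1-/- and 7.30, 7.33 and 7.42 in wild type. Its difference was -0.013 ± 0.14 (SE; 95% interval -0.34 to 0.32).

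Mice carry a pair of beta chain genes, Csf2rb for all 3 cytokines and Csf2rb2 for interleukin-3, which lie side by side on chromosome 15 with 0 protein-coding genes between them in a RefSeq gene table of GRCm38.p6. Csf2rb read 7.88, 7.45 and 7.35 on the Chrm1-/- arrays and 7.47, 7.70 and 8.51 on the wild type arrays. Csf2rb2 read 5.66, 5.48 and 5.39 on the Chrm1-/- arrays and 5.18, 5.30 and 6.44 on the wild type arrays. Wild type replicate 3 had the highest signal for both genes, and within Chrm1-/- replicate 1 was the highest for both. The differences were -0.33 ± 0.30 (SE) for Csf2rb and -0.13 ± 0.34 (SE) for Csf2rb2, and without wild type replicate 3 the Csf2rb difference was -0.025. The genes are near-identical paralogues, so probes may share signal, and their values are uncertain as separate measurements. The 18 granulocyte and monocyte markers, 10 of them below the signal minimum, also had their highest mean on wild type replicate 3, 7.47. That mean was 7.21 and 7.35 on the other wild type arrays and 7.35, 7.14 and 7.09 on the Chrm1-/- arrays. Cd68, a lysosomal protein of macrophages, is 1 of these 18 markers and so part of that mean. Its signal was 8.79, 9.0 and 10.25 in wild type, highest on replicate 3, and 8.47, 8.16 and 8.19 in Chrm1-/-. The list mean without Cd68 was not computed, so a rise across the list on wild type replicate 3 was not shown. The B cell markers, 8 of 10 below the signal minimum, had their highest mean on the same array, 6.60, against 6.48 on Chrm1-/- replicate 1. The T and NK cell markers were highest on Chrm1-/- replicate 1, at 6.93, and had 6.78 on wild type replicate 3. For mast cell and basophil markers these means were 7.01 and 6.71. Markers of erythroid cells and megakaryocytes and of stroma and endothelium were also highest on other arrays. The part of any of these cells in the beta chain values was not tested.

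Interferon and interleukin-10 receptors are built from chains of a related class. Ifngr1, the ligand-binding chain for interferon gamma, read 11.29, 11.09 and 11.39 in Chrm1-/- and 11.33, 11.19 and 11.02 in wild type, a difference of 0.077 ± 0.14 (SE; 95% interval -0.26 to 0.41). Ifnar2, a chain of the type I interferon receptor, read 10.57, 11.09 and 11.29 in Chrm1-/- and 10.87, 11.14 and 11.17 in wild type, a difference of -0.077 ± 0.21 (SE). Both genes had overlapping groups, with Chrm1-/- replicate 1 the lowest array for Ifnar2.

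Their partner chains varied more from array to array. Ifnar1, the other chain of the type I receptor, read 9.40, 8.16 and 8.98 in Chrm1-/- and 9.06, 9.42 and 9.01 in wild type. The difference of -0.32 ± 0.32 (SE) rested on Chrm1-/- replicate 2 and was 0.027 without it. Ifngr2, the signal-transducing chain for interferon gamma, read 8.17, 8.84 and 8.05 in Chrm1-/- and 8.11, 7.67 and 9.12 in wild type, with a range over the 6 arrays of 1.45 and a difference of 0.053 ± 0.41 (SE). That difference was 0.46 without wild type replicate 3 and -0.26 without wild type replicate 2. Il10rb, shared by receptors for interleukin-10, interleukin-22 and interferon lambda, read 6.82, 7.66 and 7.40 in Chrm1-/- and 7.44, 7.80 and 6.96 in wild type, a difference of -0.11 ± 0.29 (SE).

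Ifnar2, Il10rb, Ifnar1 and Ifngr2 follow each other on chromosome 16 with 0 protein-coding genes between neighbours in the same gene table. On some arrays neighbours deviated together and on others apart. Ifnar2 and Il10rb were both lowest on Chrm1-/- replicate 1, and wild type replicate 2 was the highest array of its group for Ifnar1 and Il10rb. Chrm1-/- replicate 2 had the lowest Ifnar1 signal and the highest Ifngr2 signal of its group, and wild type replicate 3 had the highest Ifngr2 and the lowest Il10rb signal of its group. The remaining member of the class, Il10ra, the ligand-binding interleukin-10 chain, was below the signal minimum and read 5.76, 5.61 and 6.53 in Chrm1-/- and 5.50, 5.76 and 5.76 in wild type.

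**Figure D3:**
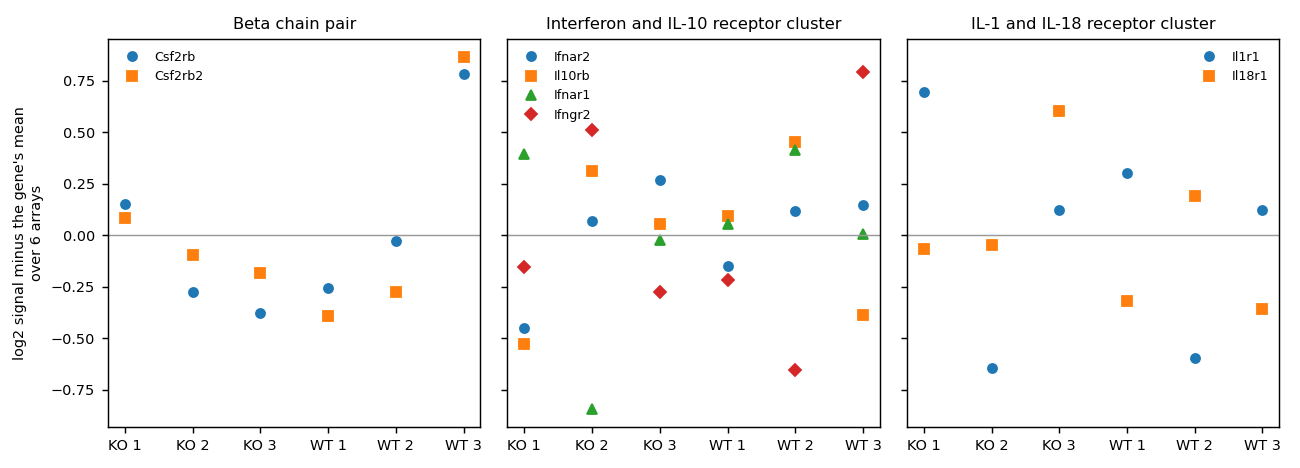
Log2 signal of neighbouring receptor genes less each gene's mean over the 6 arrays (vertical axis) on the 3 Chrm1-/- arrays (KO, left) and the 3 wild type arrays (WT, right). Csf2rb and Csf2rb2 are both highest on wild type replicate 3, while the 4 genes of the interferon receptor cluster deviate together on some arrays and apart on others; Il1r1 and Il18r1, on chromosome 1 with 2 protein-coding genes between them, are highest on different arrays.

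Receptors that use gp130, the shared chain of the interleukin-6 family, and their relatives for interleukin-12 and interleukin-27 showed no common direction, with 2 of 4 tested members higher and 2 lower and a median difference of -0.042. Il6st, which encodes gp130 itself, read 9.42, 9.26 and 9.01 in Chrm1-/- and 9.60, 9.62 and 9.0 in wild type. Its groups overlapped through wild type replicate 3, and the difference of -0.18 ± 0.21 (SE) was -0.38 without that array, at an unadjusted p of 0.0593 in limma. Il6ra, the interleukin-6 alpha chain, read 8.21, 7.69 and 7.43 in Chrm1-/- and 7.69, 7.52 and 7.69 in wild type, a difference of 0.14 ± 0.21 (SE).

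Il12rb1, the chain shared by the interleukin-12 and interleukin-23 receptors, read 6.92, 6.84 and 6.70 in Chrm1-/- and 6.92, 7.06 and 7.54 in wild type. The groups met at 1 shared value, and the difference was -0.35 ± 0.18 (SE; 95% interval -0.80 to 0.09), with an unadjusted p of 0.102 in limma. Without wild type replicate 3 it was -0.17. Il27ra, the interleukin-27 receptor chain, read 7.34, 7.01 and 7.86 in Chrm1-/- and 7.25, 7.34 and 7.34 in wild type, and the wild type values lay inside the Chrm1-/- range. Osmr, the oncostatin M receptor, and Lifr, the receptor for leukaemia inhibitory factor, adjoin each other on chromosome 15 and were both below the signal minimum. Osmr read between 5.48 and 5.82 in Chrm1-/- and between 5.24 and 5.67 in wild type, and Lifr between 5.22 and 5.27 in Chrm1-/- and between 5.19 and 5.32 in wild type.

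The interleukin-4 and common gamma chain group had small differences, between -0.10 and 0.14 among its 4 tested members. Il4ra, which pairs with the gamma chain or with Il13ra1, read 8.27, 7.78 and 8.06 in Chrm1-/- and 7.87, 8.54 and 7.90 in wild type. Il21r, which lies next to Il4ra on chromosome 7 and binds interleukin-21, read 7.85, 8.14 and 7.92 in Chrm1-/- and 7.88, 7.69 and 7.93 in wild type, a difference of 0.14 ± 0.13 (SE). The groups overlapped for both genes.

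Il15ra, the chain that presents interleukin-15, read 8.11, 8.21 and 8.33 in Chrm1-/- and 8.21, 8.27 and 8.35 in wild type, and its difference of -0.060 had a 95% interval from -0.33 to 0.21. Crlf2, the receptor chain for thymic stromal lymphopoietin, read 7.09, 7.35 and 7.07 in Chrm1-/- and 7.17, 7.33 and 7.32 in wild type, a difference of -0.10 ± 0.12 (SE). From the lowest to the highest of the 6 arrays, Il15ra spanned 0.24 and Crlf2 spanned 0.28. Il13ra1, a chain for interleukin-13 below the signal minimum, read between 6.01 and 6.07 in Chrm1-/- and between 5.76 and 6.24 in wild type.

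Igf1r and Insr are receptor tyrosine kinases for insulin-like growth factor and insulin, and their means differed in opposite directions. Igf1r read 8.71, 8.61 and 8.69 on the Chrm1-/- arrays and 8.72, 9.05 and 9.19 on the wild type arrays. Every Chrm1-/- array was below every wild type array, but wild type replicate 1 lay only 0.01 above the highest of them. The difference of -0.32 ± 0.15 (SE; 95% interval -0.67 to 0.04) had the smallest unadjusted p of the members, 0.0738 in limma. Over the fits that left out 1 array it ran from -0.45 without wild type replicate 1 to -0.22 without wild type replicate 3. The ligand gene Igf1, which is not a member, read 7.18, 6.77 and 6.85 in Chrm1-/- and 7.29, 7.37 and 7.34 in wild type, a difference of -0.40 ± 0.14 (SE) with an unadjusted p of 0.0266 and an adjusted p of 0.996 in limma. Insr read 9.29, 8.81 and 9.13 in Chrm1-/- and 8.57, 8.98 and 8.98 in wild type, a difference of 0.23 ± 0.18 (SE) with overlapping groups.

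Jak1, Stat3, Stat4 and Stat6 had the narrowest median spread of the groups of members. Jak1, the kinase used by interferon, gp130 and gamma chain receptors, read 11.17, 11.25 and 11.18 on the Chrm1-/- arrays and 11.20, 11.21 and 11.17 on the wild type arrays. All 6 values lay within 0.08 of each other, and the 95% interval of the difference ran from -0.22 to 0.24. Stat6, which acts downstream of interleukin-4 and interleukin-13, read 8.50, 8.60 and 8.50 in Chrm1-/- and 8.57, 8.51 and 8.60 in wild type, an interval from -0.27 to 0.21.

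Stat3, the main STAT of gp130 receptors and of G-CSF, read 10.27, 10.17 and 10.23 in Chrm1-/- and 10.27, 10.34 and 10.27 in wild type. The groups met at 10.27, and the difference was -0.070 ± 0.097 (SE; 95% interval -0.31 to 0.17). Stat4, the STAT of interleukin-12, read 10.41, 10.26 and 10.54 in Chrm1-/- and 10.51, 10.27 and 10.18 in wild type, a difference of 0.083 ± 0.14 (SE). The median spread within groups was 0.049 (pooled SD) for these 4 genes, against 0.21 for the 4 tested JAK and STAT genes outside the set, 0.24 for the 33 tested members and 0.22 for all genes tested. Stat4 alone had a wider pooled SD, 0.16. For Jak1, Stat3 and Stat6 the 95% interval stayed within 0.32 of 0 on the log2 scale, which held for 10.2% of all genes tested.

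Across the 33 tested members, 16 had a 95% interval inside a 1.5-fold change in either direction and 29 inside a 2-fold change. The 4 whose interval reached beyond 2-fold were Csf2rb, Ifnar1, Ifngr2 and Il1r1. Over all genes tested, 53.3% of intervals lay inside 1.5-fold and 83.7% inside 2-fold.

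Negative regulators and phosphatases included 3 higher and 2 lower members. Ptpn11, the phosphatase SHP-2, which promotes signalling from growth factor receptors to the Ras pathway, read 9.87, 9.78 and 9.34 on the Chrm1-/- arrays and 9.87, 9.94 and 10.30 on the wild type arrays. The groups met at 1 shared value, and the difference was -0.37 ± 0.19 (SE; 95% interval -0.84 to 0.10), with an unadjusted p of 0.1001 in limma. It was -0.21 without Chrm1-/- replicate 3. Ptpn6, the phosphatase SHP-1 that dampens cytokine receptor signals in blood cells, read 9.49, 9.72 and 9.99 in Chrm1-/- and 9.63, 9.53 and 9.46 in wild type, a difference of 0.19 ± 0.15 (SE). Without Chrm1-/- replicate 3 it was 0.065.

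Pias1, a SUMO ligase of the PIAS family, read 10.32, 10.06 and 10.15 in Chrm1-/- and 10.02, 10.38 and 10.15 in wild type, with a 95% interval from -0.35 to 0.33. Socs5, a SOCS family member, read 8.31, 8.36 and 8.29 in Chrm1-/- and 7.87, 8.25 and 8.71 in wild type. The Chrm1-/- arrays lay close together inside the wild type range, and the Socs5 difference of 0.043 ± 0.22 (SE) was -0.16 without wild type replicate 1 and 0.26 without wild type replicate 3.

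Socs3, which STAT3 induces and which blocks gp130 and the G-CSF receptor in a feedback loop, read 7.31 on all 3 Chrm1-/- arrays and 7.08, 7.21 and 7.31 on the wild type arrays. The difference was 0.11 ± 0.11 (SE; 95% interval -0.15 to 0.37). A dimmer Socs3 cluster read 6.94, 7.20 and 6.75 in Chrm1-/- and 7.09, 7.09 and 7.61 in wild type, a difference of -0.30, so the clusters disagreed in direction. With the mean of both clusters the difference was -0.095. Identical values of this kind were common in the table. At least 3 of the 6 arrays shared a value to the deposited 2 decimals for 5 of the 38 members (Il6ra, Il27ra, Il10ra, Stat3 and Socs3) and for 12.2% of all genes. For such genes the spread between arrays may be understated.

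Many STAT dimers bind the palindrome TTCNNNGAA, and the promoters of the members were searched for it because the feedback gene Socs3 is itself a STAT target. Motifs with another spacing were not searched. The windows, taken from RefSeq on GRCm38.p6, run from 250 bases before to 50 bases after each gene start, and the motif reads the same on both strands. Of the 41 members 33 had a window, and 7 of these held the motif (21.2%), against 9.55% of 27025 genes with a window. Some genes have several starts, and the 27025 genes had 32851 windows. The Socs3 window, at chr11:117969317-117969616 on the minus strand, is shown whole, 5′ to 3′, with the motif in capitals.
Socs3: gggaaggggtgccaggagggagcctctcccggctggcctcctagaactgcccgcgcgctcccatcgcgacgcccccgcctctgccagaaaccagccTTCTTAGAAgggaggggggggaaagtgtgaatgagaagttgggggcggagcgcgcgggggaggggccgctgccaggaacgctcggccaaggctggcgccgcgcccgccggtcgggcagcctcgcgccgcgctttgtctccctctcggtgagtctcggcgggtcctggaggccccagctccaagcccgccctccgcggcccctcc

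The motif of Socs3 began 154 bases upstream of the start. The other members with a match are shown with up to 10 bases on either side, 5′ to 3′, to set their central bases beside those of Socs3; capitals mark the motif. They lie at chr15:78305718-78305746 on the minus strand for Csf2rb2, chr16:91485200-91485228 on the plus strand for Ifnar1, chr16:91372559-91372587 on the plus strand for Ifnar2, chr6:125349473-125349497 on the plus strand for Tnfrsf1a and chr4:145247033-145247061 on the minus strand for Tnfrsf1b. Il18r1 held the motif at 2 places in 1 of its windows, of which the one at chr1:40465777-40465805 on the plus strand is shown.
Csf2rb2: gtgtccacaaTTCTGAGAAgcaagcaaag
Ifnar1: ggcgggggcgTTCACGGAAggggcggggc
Ifnar2: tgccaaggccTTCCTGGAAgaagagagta
Tnfrsf1a: gcttccTTCCGTGAAattgacaaca
Tnfrsf1b: agcgcattcaTTCCCGGAAgagatgctgg
Il18r1: tcggggttagTTCTGGGAActgtggagct

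The distance from the motif to the start ran from 5 bases upstream in Ifnar1 to 244 bases upstream in Tnfrsf1a. A match shows only that these letters are present, and no binding was measured. The 7 genes with a match had differences of both signs, from -0.32 for Ifnar1 to 0.32 for Tnfrsf1b and Il18r1, and 0 of the 6 that were tested had an unadjusted p under 0.05 in limma.

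Single arrays moved the members' summary. On wild type replicate 1 the 38 members lay 0.10 below their own averages, and that array was the sole highest for 0 of the 33 tested members, against 15.5% of all genes tested. On wild type replicates 2 and 3 the mean deviation of the 38 members was -0.019 and 0.081, and on the Chrm1-/- arrays it was 0.037, -0.041 and 0.043. Leaving out wild type replicate 1 moved the median difference of the tested members to -0.022. In that limma fit Igf1r, at -0.45, had an unadjusted p of 0.0122. Il12rb1, at -0.48, had one of 0.0495, and Il17ra, at 0.67, one of 0.00429. These 3 of 33 stand beside 3.18% of all genes tested in the same fit, and 0 members passed the adjusted threshold. In each of the 5 fits that left out another array, 0 members had an unadjusted p under 0.05.

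**Figure D4:**
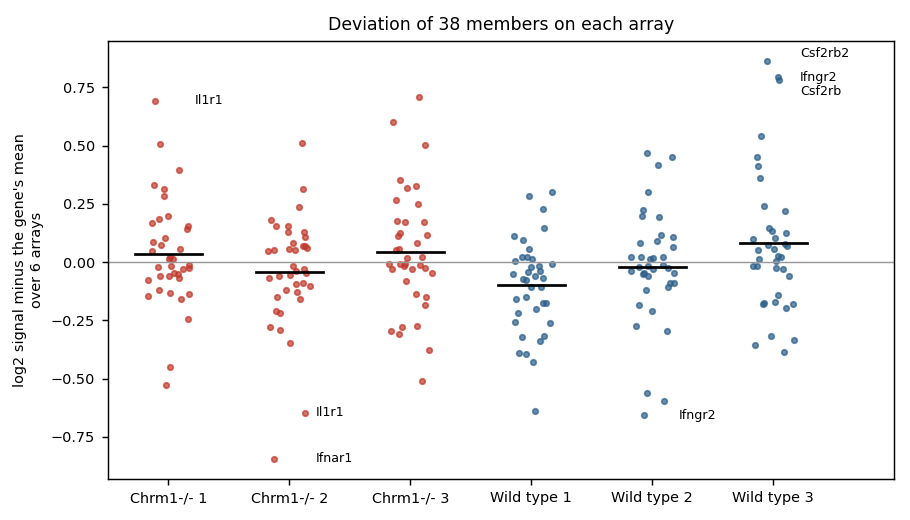
Log2 signal of the 38 members less each gene's mean over the 6 arrays (vertical axis), by array, with Chrm1-/- arrays in red and wild type arrays in blue. Points are genes and black lines are means over the 38 genes, from -0.10 on wild type replicate 1 to 0.081 on wild type replicate 3; Csf2rb, Csf2rb2 and Ifngr2 stand highest on wild type replicate 3.

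Other genes of the pathway showed few single differences. Of 15 tested receptors outside the set, 8 were higher and 7 lower, and 0 had an unadjusted p under 0.05 in limma. The remaining JAK and STAT genes had 2 of 4 tested members higher and 2 lower, and 0 had an unadjusted p under 0.05. Stat5a, a STAT of the thrombopoietin and beta chain receptors, read 8.84, 8.64 and 8.64 in Chrm1-/- and 8.15, 8.46 and 8.50 in wild type. Every Chrm1-/- array was above every wild type array, and the Stat5a difference was 0.34 ± 0.14 (SE), with an unadjusted p of 0.0506 and an adjusted p of 0.996 in limma; the unadjusted p was 0.0377 in the fit without the signal minimum. Jak2, the kinase of the thrombopoietin, erythropoietin and beta chain receptors, read 10.49, 10.48 and 10.08 in Chrm1-/- and 10.77, 10.51 and 10.43 in wild type, a difference of -0.22 ± 0.16 (SE) with overlapping groups.

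Of 25 further inhibitors and adaptors, 15 were higher and 10 lower, with a median of 0.060. An unadjusted p under 0.05 in limma was reached by 2 of the 25, both higher, against 2.99% of all genes tested. Of all genes tested, 1.4% were under 0.05 with a higher mean. The 2 were Sh2b3, the adaptor Lnk, at 0.66, and Inpp5d. Inpp5d, the lipid phosphatase SHIP1 that restrains phosphoinositide signals downstream of cytokine receptors, read 9.92, 10.09 and 10.04 in Chrm1-/- and 9.63, 9.61 and 9.61 in wild type. Every Chrm1-/- array was above every wild type array, and the Inpp5d difference was 0.40 ± 0.10 (SE), with an unadjusted p of 0.00706 and an adjusted p of 0.996 in limma. Of the 25, 3 had groups apart and higher and 1 had groups apart and lower, against 2.81% and 2.97% of all genes tested.

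Genes that STATs are known to induce had 10 of 17 tested members higher and 7 lower, a median difference of 0.013, and 0 with an unadjusted p under 0.05 in limma. Icam1, an adhesion molecule, read 6.83, 6.79 and 6.93 in Chrm1-/- and 6.93, 7.24 and 6.97 in wild type, a difference of -0.20 ± 0.13 (SE). Cdkn1a, the cell cycle inhibitor p21, read 7.35, 7.49 and 7.93 in Chrm1-/- and 7.53, 7.96 and 8.33 in wild type, a difference of -0.35 ± 0.25 (SE). The groups overlapped for both targets. Of the ligand genes, 14 of the 34 found were bright enough to be tested, 8 higher, 5 lower and 1 equal. Besides Igf1, Il18, a cytokine of the interleukin-1 family, had an unadjusted p under 0.05, at 9.02, 8.15 and 8.89 in Chrm1-/- and 7.79, 8.16 and 7.72 in wild type, a difference of 0.80 ± 0.26 (SE) with an unadjusted p of 0.0215 and an adjusted p of 0.996 in limma. So 1 of the 14 ligand genes was under 0.05 and higher and 1 was under 0.05 and lower, against 1.4% and 1.6% of all genes tested. Chrm1-/- replicate 2 lay within the wild type range for Il18 and the other two arrays lay above it.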

How the data were processed

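The authors deposited log2 signals to 2 decimals for each transcript cluster on each array. The log2 scale was inferred from their range, 3.02 to 13.67. Per the design text of the series, Affymetrix Transcriptome analysis software gave the authors' fold changes and p-values; the normalization of the signals is not given in the sources used here. Values were used without further normalization. Of 41345 clusters, 23521 had 1 gene symbol, and the cluster of highest mean stood for a gene. Genes were compared with limma 3.58.1 (lmFit, eBayes) in R 4.3.3, two-sided, Benjamini-Hochberg adjusted over the 11094 genes with a mean at or above the median, at a threshold of 0.05; the fit was tested on simulated data. Python 3.11.15 joined the tables.

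The members, lists and tests were chosen with earlier results of these data known. All members may be named; of the other lists, genes with an unadjusted p under 0.05, otherwise the 2 of smallest p. Chrm1 is named as the deleted gene, and of the marker lists the genes with an unadjusted p under 0.05. The labels do not tell whether replicates came from separate mice, so p-values measure the spread between arrays, which may be technical.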

Additional observations from a re-analysis of the deposited data

How the results depend on the processing

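In limma 0 members passed the adjusted threshold under any alternative run: no signal minimum, a minimum at the 75th percentile, quantile normalization, median centring, the mean of a gene's clusters, array weights, the replicate block, robust moderation with an intensity trend, an unmoderated fit, a threshold of 0.10 and leaving out each array. Over all genes the adjusted count was 0, and 1 without moderation; leaving out 1 array gave 0 to 1. The 332 genes at an unadjusted p under 0.05 became 567 without a signal minimum, where more genes were tested, 169 at the 75th percentile, where fewer were, 56 at an unadjusted p under 0.01, and 337 to 521 on leaving out 1 array, the highest without wild type replicate 3. Members at an unadjusted p under 0.05 numbered 0 in each setting but the one without wild type replicate 1; leaving out 1 array gave 0 to 3. The median difference of the tested members ran from -0.022 to 0.060 on leaving out 1 array, and that of all 38 from -0.030 to 0.065. With the replicate block 396 genes and 0 members had an unadjusted p under 0.05; same-numbered arrays did not deviate together (correlations -0.031, 0.009 and -0.011), and the labels tie no number to a mouse or day. Socs3 moved by more than its spread with the mean of its clusters. The cause of these shifts was not tested.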

Other observations

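Chrm1-/- replicate 3 was the sole highest array for 10 of the 33 tested members, against 17.4% of all genes tested. Wild type replicate 3 was the sole highest or the sole lowest for 14 of them, against 37.4% of all genes tested. Il18rap, the accessory chain of the interleukin-18 receptor and no member, read 9.67, 8.0 and 8.35 in Chrm1-/- and 7.51, 8.01 and 8.01 in wild type, a difference of 0.83 ± 0.44 (SE) with an unadjusted p of 0.107 in limma. Its receptor partner Il18r1 and the ligand gene Il18 also had higher means in Chrm1-/-, and a different Chrm1-/- array was the highest for Il18r1 than for Il18rap and Il18.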
